A study of Mus musculus with 12 samples.

Results

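The S phase and DNA replication genes described here are 33 genes taken from a fixed list of symbols, drawn up with earlier results of these data known, out of 24421 gene symbols in the count table. All 33 had enough reads to be tested, among 15246 genes tested in all. They were followed in whole embryonic lungs of wild-type CD-1 mice, taken from the embryo on day 12.5 and kept as explants in drops of Matrigel, a basement membrane gel, at an air-liquid interface. There were 3 groups of 4 bulk RNA-seq libraries. In the Day 2 compression group a 20% solution of the polymer PEG-HCC was hardened around each lung with a two-photon laser and restricted its growth for 2 days. The Day 2 control group received the same solution without crosslinking. The Day 0 group was sampled at the time the solution was added, 1 day after isolation. The crosslinked barrier is a mechanical model in an isolated organ without blood flow, and the effects of laser crosslinking and of restriction cannot be told apart. Nothing in the labels ties a library to its own animal or to a pool, so p-values measure the spread between these libraries.

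Before a cell divides, origins of replication are marked by the origin recognition complex, and Cdc6 and Cdt1 load the ring of Mcm2 to Mcm7 onto DNA. At the start of S phase Cdc45 and the GINS complex join the ring to form the active helicase, polymerase alpha with primase lays down primers, and the clamp Pcna holds the polymerases on the template. Most of these genes are transcribed in a wave at the G1/S transition that the E2F transcription factors drive, so their summed RNA in a tissue is widely read as a sign of how many cells are entering or passing through S phase. In the embryonic lung, where epithelial branching and growth of the mesenchyme depend on cell division, most of them are well expressed. In bulk RNA, fewer cells in S phase and less RNA per cell cannot be told apart.

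RefSeq promoter windows of GRCm38.p6, running from 250 bases before to 50 bases after the annotated start, were available for 29 of the 33 genes and not for Ccne2, Mcm4, Gins1 and Gins2. Both strands were searched for the 4 E2F-like octamers TTTCCCGC, TTTCGCGC, TTTGCCGC and TTTGGCGC, matches of which may overlap, and for the CCAAT box. An E2F-like octamer lay in the window of 11 of 29 replication genes (37.9%), against 704 of 27025 genes with a window (2.6%), and a CCAAT box lay in 19 of 29 (65.5%), against 41.1% of all genes. The octamer was found in 4 of 5 Mcm2 to Mcm7 genes, 3 of 4 origin and licensing genes and 0 of 4 nucleotide supply genes. Windows are printed for Cdc6, Mcm10 and Cdc45, which had the smallest p-values between compression and control. Pola1, Chaf1a and Ccne1 had the largest changes of control over Day 0 among genes with a window, and of these Pola1 is printed. Mcm5 and Mcm6 are printed too, chosen after the matches were seen because they hold 2 and 3 octamers. The printed windows thus lean toward genes with matches. Capitals mark octamer matches and CCAAT boxes as read on the strand of the gene, so that GCGGGAAA, GCGCGAAA, GCGCCAAA and ATTGG are matches on the other strand. The windows are chr11:98907901-98908200 on the plus strand for Cdc6, chr2:5012742-5013041 on the minus strand for Mcm10, chr16:18811923-18812222 on the minus strand for Cdc45, chrX:93632106-93632405 on the minus strand for Pola1, chr8:75109259-75109558 on the plus strand for Mcm5 and chr1:128359656-128359955 on the minus strand for Mcm6.
Cdc6: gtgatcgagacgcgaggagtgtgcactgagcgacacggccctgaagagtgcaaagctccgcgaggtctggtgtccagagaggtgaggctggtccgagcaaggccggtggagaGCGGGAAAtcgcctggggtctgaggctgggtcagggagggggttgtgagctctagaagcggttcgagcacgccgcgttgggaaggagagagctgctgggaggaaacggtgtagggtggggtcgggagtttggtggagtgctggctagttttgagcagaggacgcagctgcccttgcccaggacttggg
Mcm10: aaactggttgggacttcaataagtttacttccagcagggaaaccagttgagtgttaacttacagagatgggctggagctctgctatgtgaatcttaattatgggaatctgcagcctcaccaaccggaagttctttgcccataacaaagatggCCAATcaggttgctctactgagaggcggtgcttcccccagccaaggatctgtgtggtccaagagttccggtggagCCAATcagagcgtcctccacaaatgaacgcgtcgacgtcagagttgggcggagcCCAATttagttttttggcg
Cdc45: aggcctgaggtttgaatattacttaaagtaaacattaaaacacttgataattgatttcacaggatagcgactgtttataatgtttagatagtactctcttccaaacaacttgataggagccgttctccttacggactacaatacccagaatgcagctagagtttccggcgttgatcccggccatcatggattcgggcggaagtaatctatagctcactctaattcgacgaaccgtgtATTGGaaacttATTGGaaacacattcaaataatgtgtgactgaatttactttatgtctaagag
Pola1: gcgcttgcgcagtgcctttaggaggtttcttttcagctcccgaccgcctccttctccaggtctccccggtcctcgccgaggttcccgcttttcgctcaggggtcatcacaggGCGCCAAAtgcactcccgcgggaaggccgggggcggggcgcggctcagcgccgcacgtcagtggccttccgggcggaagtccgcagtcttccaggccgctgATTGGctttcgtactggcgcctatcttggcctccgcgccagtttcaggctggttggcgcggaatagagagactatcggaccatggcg
Mcm5: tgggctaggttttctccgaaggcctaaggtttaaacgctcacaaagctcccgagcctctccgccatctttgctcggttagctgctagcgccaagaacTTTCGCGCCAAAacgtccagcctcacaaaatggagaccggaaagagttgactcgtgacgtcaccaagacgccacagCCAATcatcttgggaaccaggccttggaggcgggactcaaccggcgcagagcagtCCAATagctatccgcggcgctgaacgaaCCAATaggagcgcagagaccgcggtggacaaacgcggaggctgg
Mcm6: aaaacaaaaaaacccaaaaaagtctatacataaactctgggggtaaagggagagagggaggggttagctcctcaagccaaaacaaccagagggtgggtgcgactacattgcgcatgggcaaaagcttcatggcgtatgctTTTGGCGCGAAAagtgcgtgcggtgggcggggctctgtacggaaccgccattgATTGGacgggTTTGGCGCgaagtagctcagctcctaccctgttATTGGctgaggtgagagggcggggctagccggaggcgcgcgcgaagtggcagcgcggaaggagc

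In the Cdc6 and Pola1 windows the octamer began 138 bases before the start site. Mcm5 held a pair of overlapping octamers on opposite strands, which began 153 and 149 bases before the start. Mcm6 carried an overlapping pair 110 and 106 bases before the start and a further octamer 47 bases before it. These distances are from the RefSeq start, which can differ from the start in the GENCODE annotation. There the Cdc6 gene starts at position 98907801, ahead of its window, and Mcm5 at 75109569, past the end of its window. Mcm10 and Cdc45 held CCAAT boxes alone, 3 and 2 of them, Chaf1a held 1 CCAAT box and Ccne1 neither motif. A match is a run of letters and not a measured binding site. The median log2 fold change of compression over Day 0 was -0.21 for the 11 genes with an octamer and -0.20 for the 18 genes with a window and none.

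Libraries held 13979871 to 33249761 counts, of which the 33 genes took 0.306% to 0.385%, or 52341 to 119566 reads per library. Markers of lung epithelium and mesenchyme were detected in every library, with none of the 9 epithelial markers at 0. Control replicate 4 held liver transcripts, with a summed level of 8 liver genes of 1580 CPM (counts scaled to a common library size with TMM factors), against at most 17.5 CPM elsewhere. Compression replicates 2 and 3, whose descriptions share a number, were closer to each other than other within-group pairs, with a mean chi-square per gene of 4.09 against at least 7.51, and were counted as 2 samples. Between 0.553% and 5.64% of counts fell to Rn45s, a ribosomal RNA precursor, with the highest share in compression replicate 4.

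Summed over the 33 genes, the level was 3400, 3213, 3270 and 3141 CPM in the 4 Day 2 compression libraries, 3421, 3773, 3569 and 3342 CPM in the Day 2 controls and 3988, 3766, 3684 and 3581 CPM at Day 0. Every compression library lay below every Day 0 library, the control libraries overlapped with both other groups, and only compression replicate 1 reached above the lowest control. The lowest sum was that of compression replicate 4, the library with the most Rn45s, whose part in it was not tested. The summed CPM of general epithelial markers also differed between groups. It was 2171 to 2764 CPM under compression, 1995 to 2135 CPM in controls and 975 to 1143 CPM at Day 0. Between compression and control this difference lay mostly in Sftpc, at 677 to 1230 CPM under compression and 460 to 740 CPM in controls. Its log2 fold change was 0.83, against a median of 0.11 over the 9 epithelial markers, of which 0 passed the threshold. The 8 endothelial markers summed to 88.9 to 105 CPM under compression, 60.0 to 113 CPM in controls and 336 to 552 CPM at Day 0. Leukocyte markers summed to 192 to 234 CPM under compression and 104 to 123 CPM at Day 0. In control replicates 1 to 4 they summed to 122, 137, 141 and 208 CPM, the last in the library that held liver transcripts. Red cell markers summed to 117 to 214 CPM under compression, 115 to 198 CPM in controls and 1065 to 2223 CPM at Day 0. The part of these cell populations in the values of the replication genes was not tested.

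**Figure D1:**
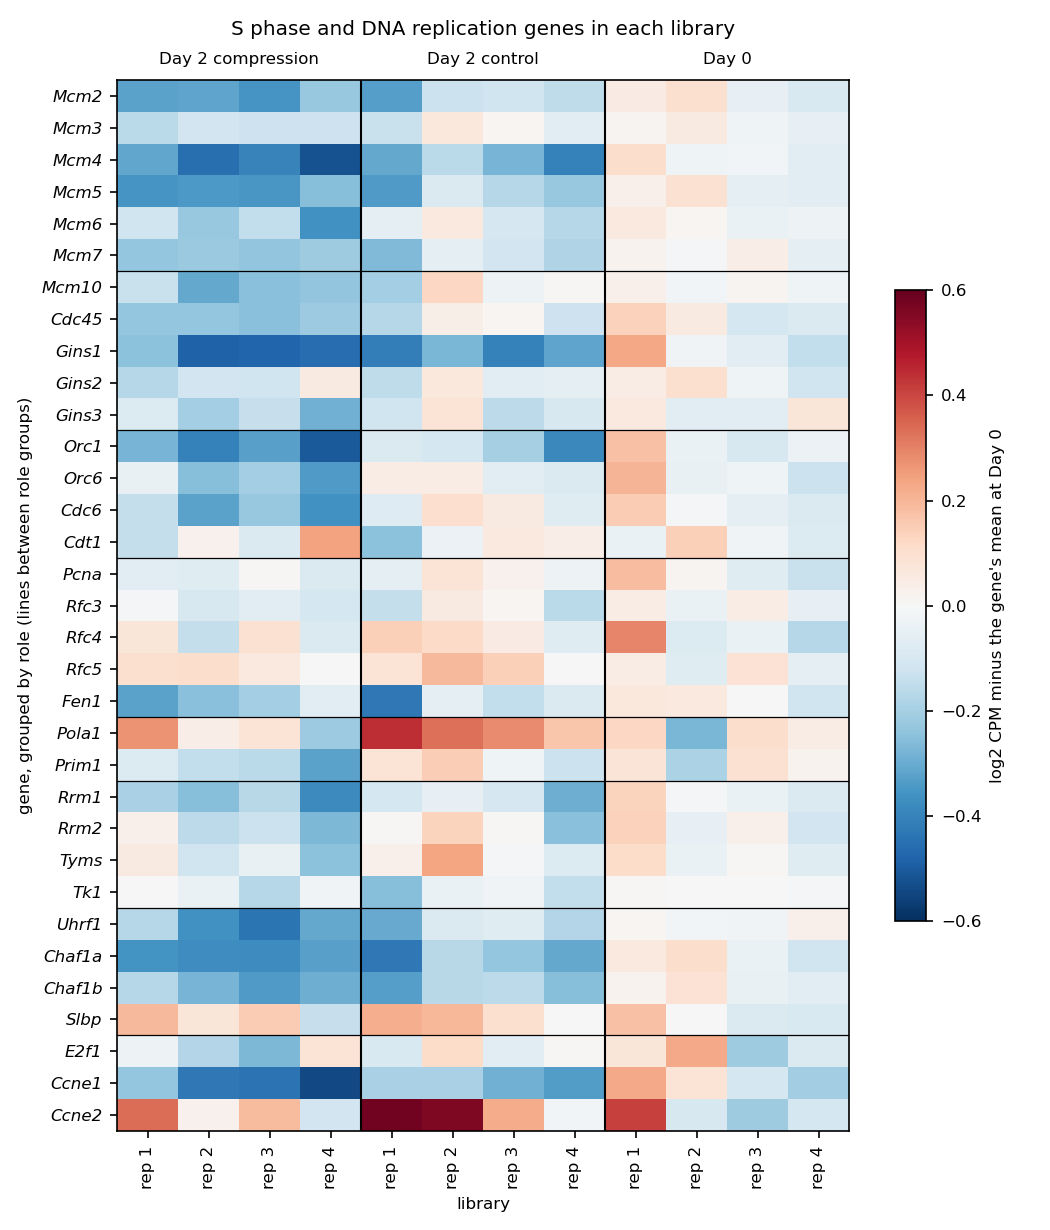
Log2 CPM of each of the 33 genes (rows, in 8 role groups) in each library (columns), minus the gene's mean at Day 0. Blue, a level below the Day 0 mean, fills most of the Day 2 compression columns, is mixed in the Day 2 control columns, and is deepest for Mcm4, Gins1, Orc1 and Ccne1.

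Compression was set against control at Day 2 to ask what restricted growth does to the lung. No replication gene passed the threshold of an adjusted p below 0.05 with edgeR, and neither did any other gene (0% of 15246). The fitted level was lower under compression for 31 of the 33 genes, against 49% of all genes tested. The median log2 fold change was -0.11, against 0.0039 for all genes. The 33 genes moved together from library to library (median pairwise r of 0.46 within groups) and were chosen with earlier results known. Their signs are therefore not independent, and the count is a description. Without adjustment 8 genes had p below 0.05, all of them lower (Cdc6, Mcm10, Cdc45, Prim1, Pola1, Uhrf1, Orc6 and Mcm6), where 5.33% of all genes were lower at that level. In Cdc6 and Cdc45 every compression library lay below every control, a separation seen in that direction for 2.7% of all genes. The lowest adjusted p was 0.309, for Cdc6. DESeq2 also called 0 of the 33, with a lowest adjusted p of 0.0765, and called 0.453% of all genes, while limma-voom with sample quality weights called 8 of the 33 lower, where it called 5.17% of all genes lower. Control replicate 2 had the highest levels of its group: without it 28 genes were below control, the median was -0.064 and 2 genes had an unadjusted p below 0.05. That number was 5 without control replicate 3 or compression replicate 2, and 12 without control replicate 4 or compression replicate 1. With compression replicates 2 and 3 summed, 31 genes were below control and 6 had an unadjusted p below 0.05. The lowest adjusted p was then 0.640 with edgeR, again for Cdc6. With control replicate 4 also left out, 30 genes were below control and 5 had an unadjusted p below 0.05.

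**Figure D2:**
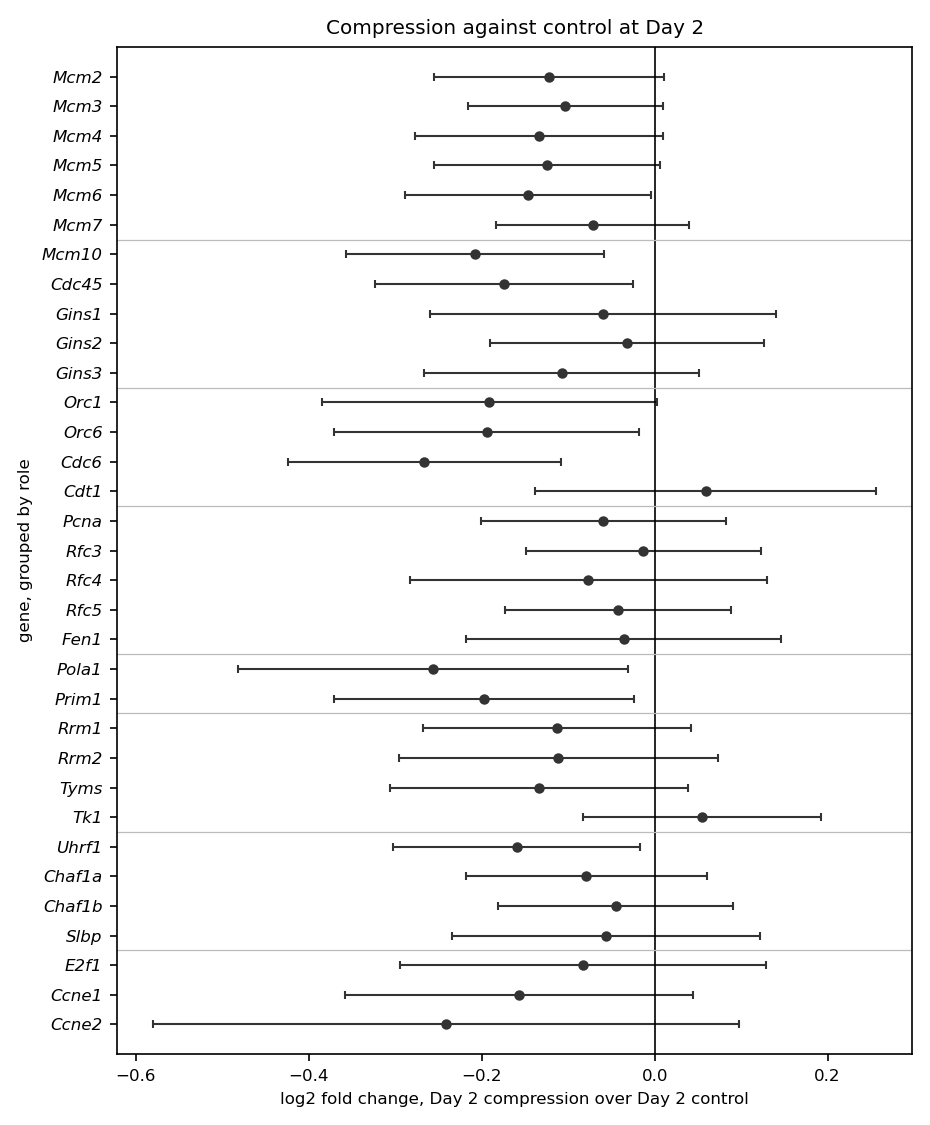
Log2 fold change of Day 2 compression over Day 2 control for each of the 33 genes (points) with the 95% confidence interval (bars), n = 4 libraries per group. Of 33 points 31 lie left of 0, and the intervals of 8 genes do not include 0 before adjustment for the number of genes tested.

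Both Day 2 groups were also set against Day 0, to show how levels differed after 2 days of culture with the solution. Both Day 2 groups received the 20% solution, and the labels give none for Day 0. Time in culture and exposure to the solution therefore cannot be told apart in these comparisons. The 2 comparisons share the Day 0 libraries, so their results are not independent and are given side by side. Under compression 16 of the 33 genes fell below Day 0 and 0 rose, where 22.5% of all genes were called lower and 26.6% higher (49.1% either way). In Day 2 controls 8 genes fell below Day 0 and 1 rose, where 17.6% of all genes were called lower and 22.6% higher (40.2% either way). The share of replication genes called lower thus lay near the share among all genes for controls (24.2% against 17.6%) and further above it under compression (48.5% against 22.5%), a difference that was not tested. Fitted levels were below Day 0 for 28 of the 33 genes under compression, against 48.4% of all genes, and for 24 of the 33 in controls, against 47.7% of all genes. The median log2 fold change over the 33 genes was -0.21 for compression over Day 0, against 0.017 for all genes, and -0.055 for control over Day 0, against 0.020 for all genes. In 17 of the 33 genes every compression library lay below every Day 0 library, where 19.5% of all genes did so. The same held for 9 of the 33 genes in controls, where 17.4% of all genes did so.

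The 16 genes lower under compression were Mcm2, Mcm4, Mcm5, Mcm6, Mcm7, Mcm10, Cdc45, Gins1, Orc1, Orc6, Cdc6, Rrm1, Uhrf1, Chaf1a, Chaf1b and Ccne1. The 8 lower in controls were Mcm2, Mcm4, Mcm5, Mcm7, Gins1, Chaf1a, Chaf1b and Ccne1, and the gene that was higher was Pola1. The count in controls rested partly on Day 0 replicate 2, without which 4 genes were called (Mcm4, Gins1, Chaf1a and Chaf1b), while the count under compression stayed between 15 and 19 with any 1 library left out. With control replicate 4 left out and compression replicates 2 and 3 summed, the counts were 15 under compression and 7 in controls, where Mcm7 and Ccne1 no longer passed. The median of control over Day 0 was -0.11 without control replicate 2, -0.094 without Day 0 replicate 3 and -0.089 without Day 0 replicate 4, and was -0.026 with limma-voom and -0.037 with upper quartile scaling.

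**Figure D3:**
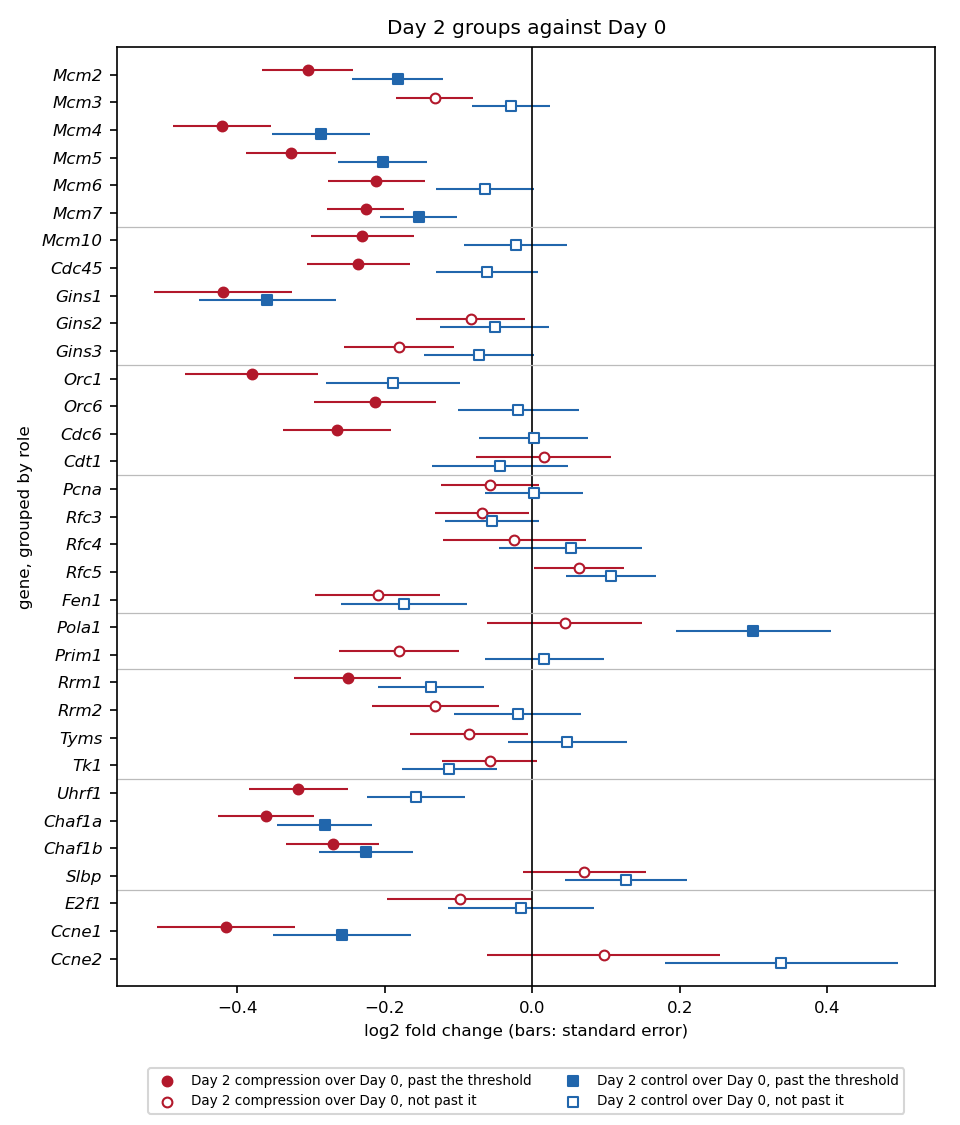
Log2 fold change of Day 2 compression over Day 0 (circles) and of Day 2 control over Day 0 (squares) for each of the 33 genes with its standard error (bars). Filled symbols passed the threshold, 16 for compression and 9 for control, and both series share the Day 0 libraries.

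For the 6 replicative helicase subunits, Mcm2 to Mcm7, the median log2 fold change over Day 0 was -0.27 under compression and -0.17 in controls. Of the 6, 5 fell under compression and 4 in controls, where 22.5% and 17.6% of all genes were called lower. Mcm4 stood at 264, 239, 248 and 228 CPM under compression, 264, 293, 270 and 247 CPM in controls and 353, 322, 324 and 313 CPM at Day 0. Both Day 2 groups lay wholly below Day 0 and overlapped with each other. Its log2 fold change over Day 0 was -0.42 (SE 0.067, adjusted p = 1.75e-04) under compression, 1.34-fold lower, and -0.29 (SE 0.067, adjusted p = 0.00377) in controls, 1.22-fold lower. Between compression and control it was -0.13 (SE 0.067, adjusted p = 0.438).

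For Mcm5 the levels were 147, 148, 147 and 157 CPM under compression, 149, 177, 167 and 161 CPM in controls and 192, 200, 181 and 180 CPM at Day 0. All Day 2 libraries were below all Day 0 libraries, and control replicate 1 was level with the compression group. Compression lay -0.33 below Day 0 on the log2 scale (SE 0.061, adjusted p = 6.06e-04), and control -0.20 (SE 0.061, adjusted p = 0.0167, or 0.0524 without Day 0 replicate 2). Mcm2 behaved alike, at 147 to 161 CPM under compression, 150 to 173 CPM in controls and 177 to 201 CPM at Day 0, with log2 fold changes of -0.30 (adjusted p = 0.00114) for compression and -0.18 (adjusted p = 0.0302) for control over Day 0. Its call in controls was lost without Day 0 replicate 2 (adjusted p = 0.0890) or control replicate 1 (adjusted p = 0.0746). Mcm7 had 185 to 188 CPM under compression, 181 to 209 CPM in controls and 210 to 224 CPM at Day 0, with log2 fold changes over Day 0 of -0.23 (adjusted p = 0.00280) for compression and -0.15 (adjusted p = 0.0299) for control, which became 0.0515 and 0.0638 without the same 2 libraries.

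Mcm6 passed for compression over Day 0 and not for control over Day 0. It had 230 to 273 CPM under compression, 263 to 309 CPM in controls and 289 to 309 CPM at Day 0, with a log2 fold change over Day 0 of -0.21 (adjusted p = 0.0172) for compression and -0.064 (adjusted p = 0.469) for control. Between compression and control Mcm6 had a log2 fold change of -0.15 (SE 0.066, unadjusted p = 0.0440, adjusted p = 0.408). Mcm3, at 185 to 191 CPM under compression, 189 to 217 CPM in controls and 200 to 215 CPM at Day 0, did not overlap between compression and Day 0 and lay at the threshold (log2 fold change -0.13, adjusted p = 0.0505). It passed in 10 of 12 fits with 1 library left out, with RLE factors, DESeq2, limma-voom and compression replicates 2 and 3 summed, and did not pass without Day 0 replicate 2 or compression replicate 3, with upper quartile factors, with no low count filter, on the 8 libraries alone or with control replicate 4 also left out. Each of the 6 subunits had a negative log2 fold change between compression and control, between -0.15 and -0.072.

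Per kilobase of annotated exon, the Mcm2 to Mcm7 genes ranged from 24.3 CPM per kb for Mcm2 to 78.2 CPM per kb for Mcm4 over the 12 libraries. Their products form a ring with 1 copy of each. The length used joins all annotated exons of a gene, 6956 bases for Mcm2 and 3589 for Mcm4. It need not be the length of the transcripts present, so genes can be compared only roughly. Mcm4 was the highest of the 33 genes on this scale, followed by Pcna at 67.3 and Mcm6 at 59.7 CPM per kb. The lowest were Orc1 at 5.21 and Mcm10 at 7.04 CPM per kb. Isoform use and the unstated counting step limit such levels per length.

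Of 5 partners that turn the Mcm ring into an active helicase, 3 fell under compression against Day 0 and 1 in controls. Over all genes 22.5% and 17.6% were called lower, so the count in controls was near the share of all genes. Cdc45, which bridges the ring and the GINS complex, had 44.2, 44.1, 43.6 and 44.6 CPM under compression, 46.1, 53.1, 52.3 and 47.5 CPM in controls and 57.0, 53.8, 48.3 and 48.8 CPM at Day 0. The compression libraries were tightly grouped and lay below every library of both other groups. Its log2 fold change was -0.24 (SE 0.069, adjusted p = 0.0122) for compression over Day 0, -0.061 (SE 0.069, adjusted p = 0.510) for control over Day 0 and -0.17 (SE 0.069, unadjusted p = 0.0250, adjusted p = 0.380) for compression over control.

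Mcm10, a scaffold that helps to activate the helicase, stood at 52.1, 46.2, 48.1 and 48.6 CPM under compression, 49.7, 62.3, 56.0 and 57.5 CPM in controls and 58.4, 56.6, 57.8 and 56.1 CPM at Day 0. Only control replicate 1 reached down into the compression range. The log2 fold change of compression over control was -0.21 (SE 0.070, unadjusted p = 0.00984, adjusted p = 0.361), and that of compression over Day 0 was -0.23 (SE 0.070, adjusted p = 0.0141).

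Gins1, a GINS subunit, had 17.5, 14.9, 15.0 and 15.2 CPM under compression, 15.6, 17.2, 15.7 and 16.7 CPM in controls and 24.5, 20.5, 19.9 and 18.8 CPM at Day 0. The 2 Day 2 groups shared 1 range, and all 8 libraries were below Day 0. Its log2 fold changes over Day 0, -0.42 (SE 0.093, adjusted p = 0.00216) for compression and -0.36 (SE 0.093, adjusted p = 0.00748) for control, were close to each other, with -0.060 between compression and control (95% confidence interval -0.26 to 0.14). The other GINS genes in the set did not pass in any comparison: Gins3 had -0.18 (adjusted p = 0.0589, past the threshold in 5 of 12 fits with 1 library left out) and Gins2 -0.084 (adjusted p = 0.367) for compression over Day 0. Of the Gins2 exons 67.3% overlap Gse1 on the opposite strand, so its counts may hold reads of that gene if strand was not used.

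In the origin and licensing group 3 of 4 genes fell under compression against Day 0 and 0 of 4 passed in controls. The shares of all genes called lower were 22.5% and 17.6%. Cdc6, the loader that recruits the Mcm ring, had 49.6, 43.9, 46.8 and 42.5 CPM under compression, 51.9, 58.8, 57.0 and 52.1 CPM in controls and 60.9, 54.3, 52.8 and 51.7 CPM at Day 0. Controls and Day 0 covered nearly the same range, and all 4 compression libraries lay below both. Compression over control gave a log2 fold change of -0.27 (SE 0.074, unadjusted p = 0.00283, adjusted p = 0.309), 1.20-fold lower, and compression over Day 0 gave -0.26 (SE 0.074, adjusted p = 0.00892), while control over Day 0 gave 0.0018 (95% confidence interval -0.16 to 0.16).

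Orc1, the largest subunit of the origin recognition complex, had 16.9, 15.5, 16.4 and 14.5 CPM under compression, 19.3, 19.1, 17.9 and 15.7 CPM in controls and 23.1, 19.9, 19.2 and 20.0 CPM at Day 0. The groups stepped upward in that order of means, with control replicate 4 inside the compression range. Compression fell below Day 0 by a log2 fold change of -0.38 (SE 0.090, adjusted p = 0.00336), whereas control over Day 0 was -0.19 (SE 0.090, adjusted p = 0.111) and compression over control -0.19 (SE 0.090, adjusted p = 0.418). Orc6 averaged 47.1 ± 4.18 CPM under compression, 53.8 ± 2.61 CPM in controls and 54.6 ± 5.58 CPM at Day 0 (SD, n = 4 each), with a log2 fold change of compression over Day 0 of -0.21 (adjusted p = 0.0448) that stayed past the threshold in 7 of 12 fits with 1 library left out. It was lost without Day 0 replicate 1 or 2 or compression replicate 2, 3 or 4, with adjusted p up to 0.0779. Cdt1, the partner of Cdc6 in loading, went another way, with 64.7 ± 7.81 CPM under compression, 62.2 ± 5.80 CPM in controls and 64.1 ± 4.44 CPM at Day 0 (SD, n = 4 each) and a log2 fold change of compression over control of 0.059 (95% confidence interval -0.14 to 0.26), of which the sign turned with limma-voom (-0.0060).

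**Figure D4:**
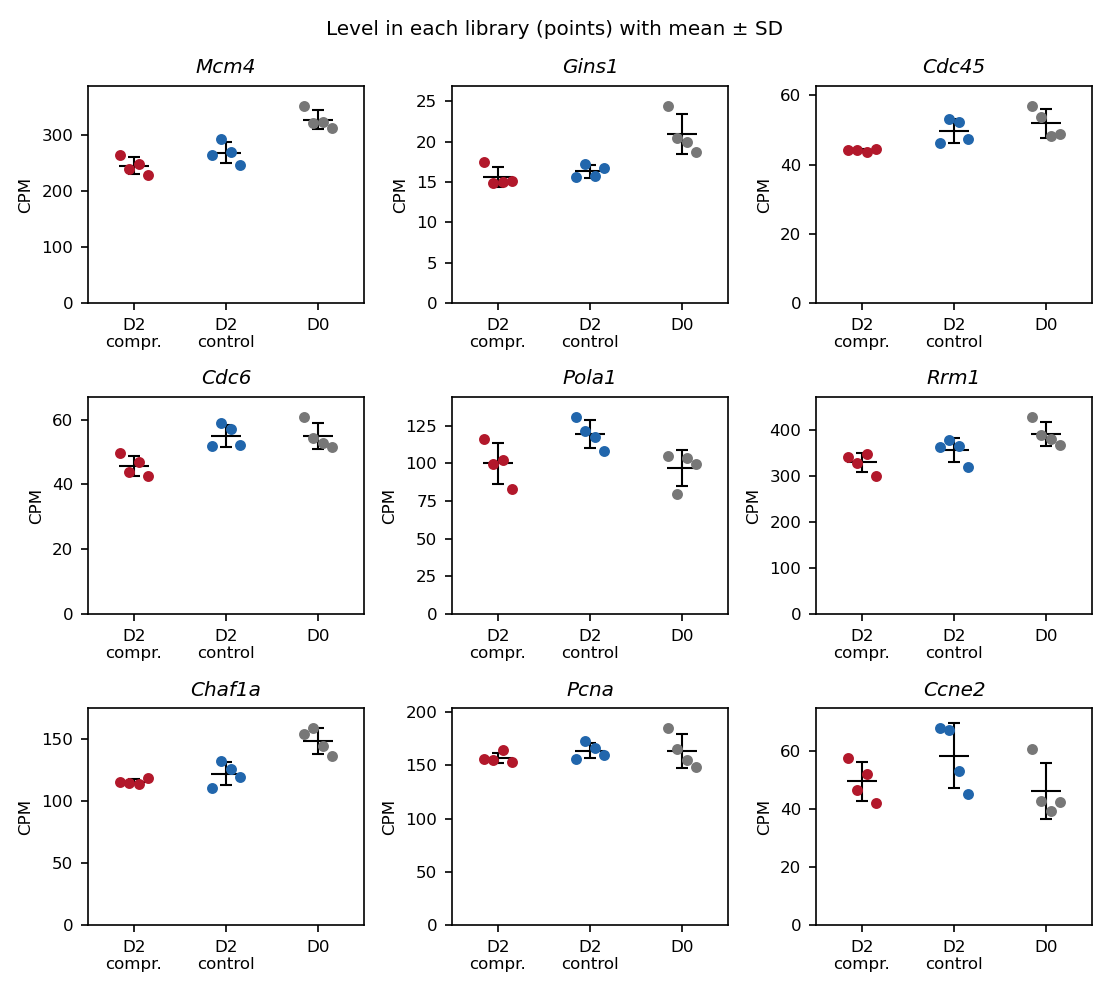
CPM in each library (points) with mean and SD (lines) for 9 genes, with Day 2 compression left, Day 2 control in the middle and Day 0 right, and the vertical axis starting at 0. Mcm4, Gins1 and Chaf1a were below Day 0 in every Day 2 library, Cdc6 and Cdc45 were lowest in all 4 compression libraries, Pola1 was highest in controls, and Pcna overlapped between all 3 groups.

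The clamp Pcna, the clamp loader subunits Rfc3, Rfc4 and Rfc5 and the flap nuclease Fen1, which trims lagging strand fragments, gave 0 of 5 calls in each of the 3 comparisons. Pcna had 156, 155, 164 and 153 CPM under compression, 156, 173, 166 and 160 CPM in controls and 185, 165, 155 and 149 CPM at Day 0. All 3 ranges overlapped. Its log2 fold change was -0.059 for compression over control (95% confidence interval -0.20 to 0.083), -0.057 for compression over Day 0 (-0.20 to 0.085) and 0.0021 for control over Day 0 (-0.14 to 0.14). Pcna has 2 named pseudogenes in the annotation and Tyms 1, which may share reads with them.

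Rfc5 was the gene of this group with the most positive values over Day 0, at 0.064 for compression (adjusted p = 0.406) and 0.11 for control (adjusted p = 0.182). Rfc3 lay at -0.068 and -0.055 in the same comparisons and Rfc4 at -0.024 and 0.052. Fen1 came closest to a call, at -0.21 for compression over Day 0 (SE 0.085, adjusted p = 0.0549) and -0.17 for control over Day 0 (SE 0.085, adjusted p = 0.120), but 78.8% of its exons overlap Gm10143 on the other strand. The 5 genes had the smallest median log2 fold change of any role group between compression and control, -0.043, against -0.12 for Mcm2 to Mcm7. The difference between these role groups was not tested.

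Pola1, the catalytic subunit of polymerase alpha, had 116, 99.3, 102 and 83.0 CPM under compression, 131, 121, 117 and 108 CPM in controls and 105, 79.8, 104 and 99.3 CPM at Day 0. Every control lay above every Day 0 library, and the compression libraries spread across both ranges. It was the only one of the 33 genes called higher, with a log2 fold change of control over Day 0 of 0.30 (SE 0.11, adjusted p = 0.0354). That call held in 5 of 12 fits with 1 library left out. It was lost without Day 0 replicate 2 or 4, control replicate 1, 2 or 3, or compression replicate 2 or 3, with adjusted p up to 0.104. Compression over control gave -0.26 (SE 0.10, unadjusted p = 0.0289, adjusted p = 0.383) and compression over Day 0 gave 0.044 (SE 0.11, adjusted p = 0.754).

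Prim1, the primase subunit that starts each primer, had 66.7, 63.8, 63.1 and 56.4 CPM under compression, 74.6, 78.1, 69.2 and 64.5 CPM in controls and 74.5, 61.9, 75.2 and 71.5 CPM at Day 0. All compression libraries other than replicate 1 lay below the lowest control, and replicate 4 lay below every Day 0 library as well, while the others overlapped with Day 0. Its log2 fold change was -0.20 for compression over control (SE 0.081, unadjusted p = 0.0289, adjusted p = 0.383), -0.18 for compression over Day 0 (SE 0.081, adjusted p = 0.0789) and 0.016 for control over Day 0 (SE 0.081, adjusted p = 0.892).

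Of the 4 genes of nucleotide supply, Rrm1 alone passed, and it did so for compression over Day 0. Rrm1, the large subunit of ribonucleotide reductase, stood at 341, 327, 347 and 299 CPM under compression, 362, 377, 364 and 318 CPM in controls and 428, 389, 380 and 367 CPM at Day 0. Compression lay wholly below Day 0, and the controls bridged the 2 ranges. The log2 fold change of compression over Day 0 was -0.25 (SE 0.072, adjusted p = 0.0109), that of control over Day 0 -0.14 (SE 0.072, adjusted p = 0.146) and that of compression over control -0.11 (SE 0.072, adjusted p = 0.520). Rrm2, the small subunit that is made in S phase, averaged 122 ± 10.5 CPM under compression, 131 ± 14.2 CPM in controls and 133 ± 10.1 CPM at Day 0 (SD, n = 4 each). Tyms, the thymidylate synthase, had -0.13 for compression over control (adjusted p = 0.500) and -0.086 for compression over Day 0 (adjusted p = 0.393). Tk1, the salvage thymidine kinase, had 0.055 for compression over control (adjusted p = 0.729) and -0.058 for compression over Day 0 (adjusted p = 0.477).

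Chromatin must be rebuilt behind the fork. Of the 4 genes with roles in it, 3 fell under compression against Day 0 and 2 in controls, where 22.5% and 17.6% of all genes did. Chaf1a, the large subunit of the histone chaperone CAF-1, had 115, 114, 114 and 118 CPM under compression, 110, 132, 126 and 120 CPM in controls and 154, 159, 144 and 136 CPM at Day 0. The 8 Day 2 libraries all lay below Day 0, and compression fell inside the range of the controls. Log2 fold changes over Day 0 were -0.36 (SE 0.065, adjusted p = 4.64e-04) for compression and -0.28 (SE 0.065, adjusted p = 0.00354) for control. Of the Chaf1a exons 52.5% overlap Ubxn6 on the opposite strand.

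Chaf1b, the second CAF-1 subunit, had 54.9, 50.9, 48.9 and 50.4 CPM under compression, 49.2, 55.2, 55.5 and 51.8 CPM in controls and 62.8, 65.8, 60.0 and 59.0 CPM at Day 0. As in Chaf1a, both Day 2 groups were below Day 0 without overlap, and overlapped with each other. Its log2 fold changes over Day 0 were -0.27 (SE 0.063, adjusted p = 0.00305) for compression and -0.23 (SE 0.063, adjusted p = 0.0117) for control.

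Uhrf1, which brings the maintenance DNA methyltransferase to newly replicated DNA, had 228, 199, 189 and 207 CPM under compression, 208, 241, 244 and 227 CPM in controls and 259, 253, 253 and 262 CPM at Day 0. Day 0 was highest without overlap, and compression replicate 1 alone kept the Day 2 groups from separating. Compression fell below Day 0 by -0.32 on the log2 scale (SE 0.067, adjusted p = 0.00148), control over Day 0 was -0.16 (SE 0.067, adjusted p = 0.0748), and compression over control was -0.16 (SE 0.067, unadjusted p = 0.0314, adjusted p = 0.388). Slbp, which binds the stem loop of histone messages, had values above Day 0 in both groups, 0.071 for compression (adjusted p = 0.501) and 0.13 for control (adjusted p = 0.243).

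Of the G1/S regulators only Ccne1 passed. Ccne1, cyclin E1, an activator of the kinase Cdk2, had 46.5, 40.5, 40.2 and 37.5 CPM under compression, 47.7, 47.7, 44.8 and 43.3 CPM in controls and 63.9, 57.8, 50.8 and 47.3 CPM at Day 0. Compression lay below every Day 0 library, and the highest controls just reached the lowest Day 0 library. Its log2 fold change over Day 0 was -0.41 (SE 0.094, adjusted p = 0.00244) for compression and -0.26 (SE 0.094, adjusted p = 0.0410) for control, the second of which lost its call without Day 0 replicate 1 or 2 or control replicate 3 or 4, with adjusted p up to 0.0954.

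Ccne2, cyclin E2, given in full after its values were seen because of its spread, had 57.5, 46.4, 52.0 and 42.0 CPM under compression, 68.0, 67.2, 53.2 and 45.0 CPM in controls and 60.6, 42.6, 39.3 and 42.4 CPM at Day 0. The groups overlapped throughout. It had the widest interval of the set, with a log2 fold change of compression over control of -0.24 (95% confidence interval -0.58 to 0.098) and of control over Day 0 of 0.34 (95% confidence interval -0.0029 to 0.68, adjusted p = 0.105), opposite in sign to Ccne1 over Day 0. It passed the threshold for control over Day 0 without Day 0 replicate 1 or control replicate 4, and with limma-voom. E2f1, the activator of the S phase genes themselves, averaged 42.1 ± 4.52 CPM under compression, 44.7 ± 2.92 CPM in controls and 45.2 ± 6.01 CPM at Day 0 (SD, n = 4 each), and passed in 0 of the 3 comparisons.

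Around these genes stood 75 other replication genes in 6 lists (licensing, polymerases, fork and clamp loader, nucleotide supply, chromatin assembly, and E2F, cyclin and CDK genes). Between compression and control 63 of 75 were lower, with 0 past the threshold and 18 lower at an unadjusted p below 0.05. Of all genes tested 49% were lower and 5.33% were lower at that level, with 0% past the threshold. Over Day 0, 31 fell and 9 rose under compression, and 14 fell and 11 rose in controls. Over all genes 22.5% fell and 26.6% rose under compression, and 17.6% fell and 22.6% rose in controls, so that the fall in controls was near the share of all genes. Ticrr and Recql4, which act in origin firing, had log2 fold changes of -0.40 each for compression over Day 0 (adjusted p = 2.57e-04 and 0.00132). Pole, the catalytic subunit of polymerase epsilon, averaged 93.5 ± 11.0 CPM under compression, 115 ± 9.35 CPM in controls and 129 ± 15.7 CPM at Day 0 (SD, n = 4 each), and fell below Day 0 under compression (log2 fold change -0.46, adjusted p = 0.00173) but did not pass in controls (-0.16, adjusted p = 0.211).

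The largest fall among these lists was that of Nasp, a chaperone that carries histones before they are deposited, at 259 ± 27.3 CPM under compression, 305 ± 17.0 CPM in controls and 411 ± 60.7 CPM at Day 0 (SD, n = 4 each). Its log2 fold change over Day 0 was -0.67 (adjusted p = 1.17e-04) for compression and -0.43 (adjusted p = 0.00394) for control. Supt16 and Ssrp1, the subunits of the chaperone FACT, and Dnmt1, the maintenance methyltransferase, fell under compression over Day 0 by log2 fold changes of -0.46, -0.28 and -0.37, with adjusted p of at most 0.00232. Outside the E2F, cyclin and CDK list, the genes that rose over Day 0 in both groups were Rrm2b, the reductase subunit used outside S phase (0.62 for compression and 0.67 for control), Pole4, an accessory subunit of polymerase epsilon (0.26 and 0.30), Rpa3, the smallest subunit of the single-strand binding complex (0.31 and 0.37), and Dtl, the adaptor that marks Cdt1 for destruction at the fork (0.14 and 0.26).

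Some inhibitors of the G1/S transition differed more from Day 0 than any of the 33 genes. Of 6 CDK inhibitor genes tested, 5 rose over Day 0 under compression and 4 in controls, and 0 passed between compression and control. Over all genes 26.6% rose under compression and 22.6% in controls, and 0% passed between compression and control. Cdkn1c, which passed in neither comparison with Day 0, had 425 ± 26.5 CPM under compression, 437 ± 67.7 CPM in controls and 494 ± 39.9 CPM at Day 0 (SD, n = 4 each), with log2 fold changes over Day 0 of -0.22 (adjusted p = 0.0847) for compression and -0.18 (adjusted p = 0.179) for control. Cdkn1a, the inhibitor induced by p53, had 139, 216, 215 and 207 CPM under compression, 151, 138, 181 and 176 CPM in controls and 31.2, 37.4, 16.8 and 18.9 CPM at Day 0. Both Day 2 groups were far above Day 0, with log2 fold changes of 2.91 (adjusted p = 2.13e-06) for compression and 2.65 (adjusted p = 5.93e-06) for control. Cdkn2b, an inhibitor of Cdk4 and Cdk6, averaged 5.90 ± 2.18 CPM under compression, 5.28 ± 1.62 CPM in controls and 0.296 ± 0.0511 CPM at Day 0 (SD, n = 4 each). The Day 0 level of Cdkn2b was close to the 0.0902 to 0.215 CPM that a library count of 0 would allow. Cdkn2c had log2 fold changes over Day 0 of 1.44 for compression and 1.28 for control, and Cdkn1b of 0.51 and 0.42. All of these passed the threshold. The pocket protein gene Rb1, which restrains E2F, rose over Day 0 by 0.60 for compression and 0.65 for control, and the activator E2f2 by 0.71 and 0.81, while the activator E2f3 fell, at -0.39 and -0.28.

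**Figure D5:**
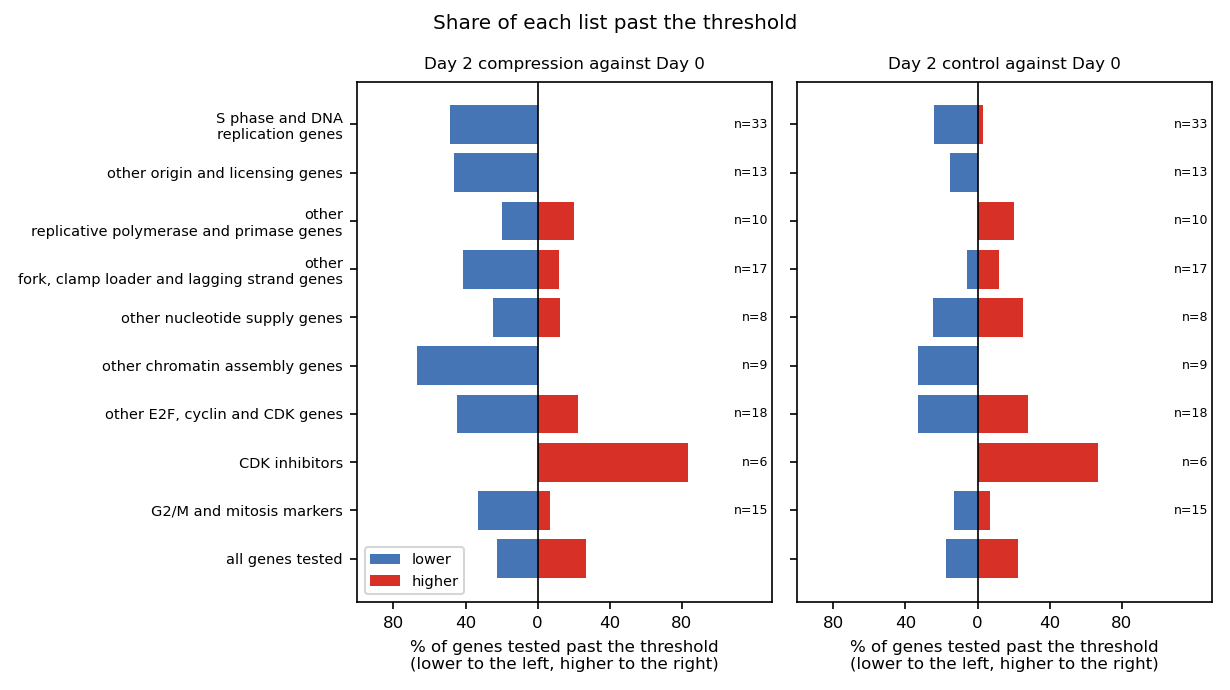
Percent of the genes tested in each list that passed the threshold over Day 0, lower to the left and higher to the right, for Day 2 compression (left panel) and Day 2 control (right panel), with the number tested beside each bar. Of the 33 replication genes 16 are lower and 0 higher under compression, and 8 lower and 1 higher in controls, while 5 and 4 of 6 CDK inhibitors are higher in the same groups, and the bottom bars give all 15246 genes tested.

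Within groups most pairs of replication genes were positively correlated from library to library. Measured as deviations of log2 CPM from the group mean over the 12 libraries, the median Pearson r over the 528 pairs of the 33 genes was 0.46, and 444 pairs were positive. The points share the library, its depth and its scaling, so these values are a description. Pairs drawn from all genes were not measured, so the values are not shown to be particular to these genes. The gene closest to the mean of the others was Cdc6 (r = 0.94), followed by Mcm4 (0.94), Tyms (0.85) and Rrm2 (0.85), and the farthest were Cdt1 (-0.22) and Fen1 (0.21). Control replicate 2 lay above its group mean for 33 of 33 genes, Day 0 replicate 1 for 32 and compression replicate 1 for 24, while Day 0 replicate 4 did so for 4 and control replicate 4 for 6. Among 11585 other genes with at least 5 CPM, those most like the mean deviation of the 33 were Dut (r = 0.93), Tmeff1 (0.92), Pfkfb1 (0.92), Hnrnpab (0.92), Stmn1 (0.92), Nono (0.92), Rfc2 (0.92) and Msmo1 (0.91), over 12 libraries.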

How the data were processed

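Raw counts of reads per gene symbol were deposited as 1 table for the 12 libraries, which the labels place in 3 groups of 4. Per the submitters' processing notes, fastp, STAR and the mm10 build were used. The sources used here do not give versions, the counting step, the annotation or the strand setting, so where genes overlap on opposite strands their reads may be mixed.

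From these counts, edgeR 4.0.16 (R 4.3.3) fitted all 12 libraries with the group as the only term: filterByExpr (min.count 10, min.total.count 15), TMM factors, robust quasi-likelihood test, and Benjamini-Hochberg adjustment over the 15246 genes tested, with a threshold of 0.05. Adjusted p-values are those of this edgeR test, except where a sentence names another tool. Medians over the 33 genes have no test. Alternatives were DESeq2 1.42.0, limma-voom 3.58.1 with sample weights, other scaling factors, no low count filter, a replicate block, 8 libraries only, summed compression replicates 2 and 3, and each library left out. The fit with control replicate 4 left out and those replicates summed was chosen after seeing the data.

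The members and lists were chosen with earlier results of these data known. Values in every library are given for the 6 members with the smallest p between compression and control, the 6 with the largest called change over Day 0 in each Day 2 group, and at least 1 per role group. Up to 4 genes per other list, by smallest p, could be named. Gene lengths and overlaps are from GENCODE release 21 of the mouse (GRCm38), matched by symbol for 33 of 33 genes. Promoters are RefSeq windows of GRCm38.p6. A library count of 0 would allow up to 3 counts, 0.0902 to 0.215 CPM, for counting error alone.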

Additional observations from a re-analysis of the deposited data

Results flagged for a closer look

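Of the 99 sets of 4 libraries formed by 33 genes and 3 groups, 4 held a library set apart from the other 3 by more than Dixon's limit, where chance gives about 1 in 20. Mcm5 had 157 CPM in compression replicate 4, against 147 to 148 CPM in the other compression libraries. Gins1 had 17.5 CPM in compression replicate 1, against 14.9 to 15.2 CPM in the others. Mcm2 had 150 CPM in Day 2 control replicate 1, against 169 to 173 CPM in the other controls. Ccne2 had 60.6 CPM in Day 0 replicate 1, against 39.3 to 42.6 CPM in the others.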

How the results depend on the processing

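The count between compression and control was 0 under every alternative other than limma-voom with quality weights, where it was 8 (Mcm2, Mcm5, Mcm10, Cdc45, Orc6, Cdc6, Pola1 and Uhrf1); the cause was not tested. With 1 library left out the counts were 0 to 0 for compression over control, 15 to 19 for compression over Day 0 and 4 to 10 for control over Day 0, the lowest without Day 0 replicate 2. Other alternatives gave 15 to 20 and 7 to 10. The medians stayed negative, at -0.12 to -0.064, -0.24 to -0.18 and -0.11 to -0.042 with 1 library left out. Same-numbered libraries of different groups had correlated deviations of r from -0.26 to 0.15. In 5 of 12 such pairs the own number gave the highest correlation. With 4 libraries per group this check cannot settle whether the numbers pair the samples. With the replicate as a block the counts were 0 for compression over control, 18 for compression over Day 0 and 10 for control over Day 0, and 12 genes were lower in compression than control at an unadjusted p below 0.05. The block added Mcm3 and Fen1 for compression over Day 0 and Ccne2 for control over Day 0. The standard errors of the log2 fold changes between compression and control, 0.052 to 0.16, set the size of difference that 4 libraries per group could show.

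Signs turned only for genes without a call in the comparison concerned. For compression over control, Cdt1 was -0.0060 and Tk1 -1.0e-04 with limma-voom, Rfc3 was 0.0056 with upper quartile factors, and Fen1 was 0.0086 with control replicate 4 left out and compression replicates 2 and 3 summed. For compression over Day 0, Cdt1 was -0.0026 with RLE factors and -0.0021 with DESeq2, and Rfc4 was 0.015 with upper quartile factors. For control over Day 0, limma-voom gave 0.0098 for Cdc45, 0.0085 for Cdt1, 0.050 for E2f1 and -0.022 for Prim1, and upper quartile factors gave 0.0051 for E2f1 and 0.0016 for Orc6. There Cdc6 was -0.018 (RLE), -0.0087 (no filter), -0.017 (DESeq2), -0.0076 (8 libraries) and -0.015 (replicates summed), and Pcna was -0.017, -0.0086, -0.017, -0.0071 and -0.015 under the same settings and -0.0039 with control replicate 4 also left out. Prim1 was -0.0033 (RLE), -0.0035 (DESeq2) and -0.0012 (replicates summed), and Rrm2 was 0.031 with control replicate 4 left out and replicates summed.

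With 1 library left out, signs turned within these ranges. For compression over control they were -0.024 to 0.11 for Cdt1, -0.11 to 0.0088 for Fen1, -0.082 to 0.012 for Gins2, -0.039 to 0.028 for Rfc3 and -0.10 to 0.0083 for Slbp. For compression over Day 0 they were -0.0034 to 0.23 for Ccne2, -0.087 to 0.063 for Cdt1, -0.057 to 0.11 for Pola1 and -0.10 to 0.056 for Rfc4. For control over Day 0 they were -0.046 to 0.032 for Cdc6, -0.094 to 0.0073 for Cdt1, -0.10 to 0.062 for E2f1, -0.087 to 0.021 for Mcm10, -0.079 to 0.030 for Orc6, -0.057 to 0.044 for Pcna, -0.041 to 0.044 for Prim1, -0.021 to 0.14 for Rfc4, -0.088 to 0.030 for Rrm2 and -0.033 to 0.070 for Tyms. Of 693 single-gene results per comparison, 673, 635 and 607 kept sign and side of the threshold for compression over control, compression over Day 0 and control over Day 0.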

Other observations

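Of 15 G2/M and mitosis genes, 5 fell over Day 0 under compression and 1 rose, and 2 fell and 1 rose in controls, with 0 past the threshold between compression and control. Over all genes 22.5% fell and 26.6% rose under compression and 17.6% fell and 22.6% rose in controls, so that these counts in controls were no higher than the shares of all genes. Plk1, the mitotic kinase, averaged 87.7 ± 6.22 CPM under compression, 85.8 ± 9.25 CPM in controls and 108 ± 8.74 CPM at Day 0 (SD, n = 4 each), with log2 fold changes over Day 0 of -0.30 (edgeR, adjusted p = 0.00983) for compression and -0.34 (adjusted p = 0.00668) for control. Ccnb2, a B-type cyclin, rose over Day 0, with log2 fold changes of 0.28 (adjusted p = 0.00107) for compression and 0.21 (adjusted p = 0.00800) for control. The proliferation marker Mki67 had 857, 610, 637 and 595 CPM under compression, 980, 822, 801 and 734 CPM in controls and 774, 686, 890 and 961 CPM at Day 0. Its groups overlapped, and compression over control had a log2 fold change of -0.31 (SE 0.13, unadjusted p = 0.0374, adjusted p = 0.396). In the promoter windows of these genes an E2F-like octamer was found in 1 of 13 and a CCAAT box in 12 of 13.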
